A study of Homo sapiens with 15 samples.

Results

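The 10 messenger RNAs described here, GADD45A, GADD45B, PIM3, MAP3K14, UVRAG, GABARAPL1, TBL2, DNAJB2, UPP1 and RASSF1, have been published as targets of nonsense-mediated mRNA decay (NMD). They were chosen by gene symbol, with earlier results of these data known. All 10 were found among the 12261 genes of the deposited table. The cells were HEK-293 Trex, an established line from human embryonic kidney in which doxycycline switches on the inserted construct. Separate lines carried CLIP-tagged UPF1 isoform 1 (UPF1-1), CLIP-tagged UPF1 isoform 2 (UPF1-2) or CLIP-tagged GFP, and every line received doxycycline at 200 ng/mL. Total RNA was sequenced from the 3 lines, and RNA purified with the tagged protein (IP) from both UPF1 lines, with 3 replicates in each of the 5 groups. No GFP purification was used here, so recovery is the IP level over the total RNA level of the same replicate. Because each construct sat in its own line, an effect of the line and an effect of the protein cannot be told apart. Nothing in the labels says that replicates were separate cultures, so p-values measure only the spread between these samples.

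NMD degrades mRNAs on which translation ends in an unusual context, for example upstream of an exon junction or far from the poly(A) tail. UPF1 is an RNA helicase that binds mRNA broadly and is needed for NMD, and its isoforms differ in a regulatory loop of the helicase core. Many normal mRNAs are NMD targets, among them mRNAs of growth arrest, kinase signalling and autophagy proteins, and the pathway thereby limits their level.

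Levels are in TPM, a share of the library's transcripts that accounts for transcript length, and each gene has 1 Ensembl transcript. UPF1 itself checked the labels: its level was 3.24 to 8.57 TPM in GFP total RNA, 94.5 to 186 TPM in UPF1-1 and 68.9 to 171 TPM in UPF1-2. Replicate 3 stood apart in every group. The listed genes held 17.1% to 19.0% of the TPM scale in total RNA of replicate 3, against 12.2% to 14.9% in replicates 1 and 2, and 69.6% to 69.9% against 44.7% to 49.4% in the IPs. Of the HEK-293 markers, 5 of 7 were in the table. The only marker of another cell type in the table was CD68, 1 of 4 blood markers, at 0.27 to 0.92 TPM in total RNA, and none of 3 endothelial or 4 fibroblast markers was listed.

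Differences below are on the log2(TPM + 0.5) scale with library medians set equal, from limma with the replicate number as a block. They are called at a Benjamini-Hochberg adjusted p under 0.05 over all genes tested. The mean level over the 9 total RNA libraries was highest for PIM3, at 14.8 TPM. GADD45B and GADD45A followed at 5.37 and 5.04 TPM, RASSF1 at 2.76 and GABARAPL1 at 2.41 TPM. TBL2, UVRAG, DNAJB2 and UPP1 lay between 1.33 and 1.68 TPM. MAP3K14 was the lowest at 0.279 TPM and did not pass the filter of 1 TPM in 3 libraries in total RNA, so 9 of the 10 were tested there. Over the 9 libraries PIM3 did not overlap with GADD45B, nor MAP3K14 with UPP1, while the other neighbours in this order overlapped.

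With UPF1-1, 4 of 9 tested mRNAs rose against GFP and none fell: GADD45A, TBL2, RASSF1 and GADD45B. Over all 9325 genes tested, 8.38% rose, 7.79% fell and 16.2% changed either way. The median difference of the 9 was 0.31, beside -0.01 over all genes. The members were chosen with earlier results of these data known, so they are not an independent list. With UPF1-2, none of the 9 passed, where 0.375% of all genes did. At an unadjusted p under 0.05, 6 of the 9 passed with UPF1-1, where 32.3% of genes did, and 4 of the 9 with UPF1-2, where 12.1% did. Against GFP within replicate numbers, 6 of the 9 were higher in 3 of 3 with UPF1-1, where 28% of genes were, and 4 of the 9 with UPF1-2, where 14.7% were. Both comparisons use the same GFP libraries. In these bulk libraries, more cells with an mRNA and more mRNA per cell cannot be told apart. The calls rest on the block: with library medians set equal but no block, none of the 9 passed in either comparison. With the block but medians left as they were, only GADD45A did.

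**Figure D1:**
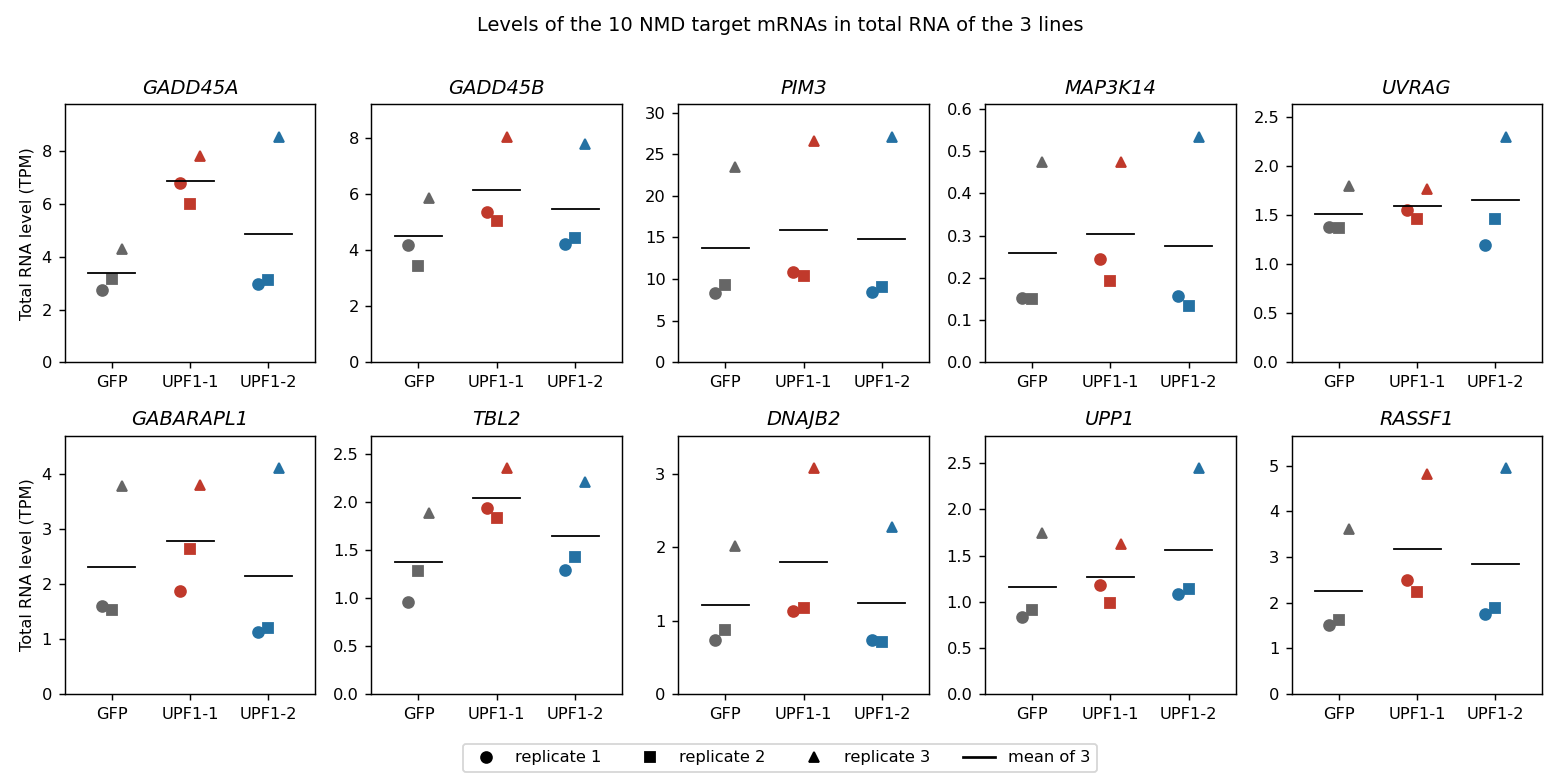
TPM of each of the 10 mRNAs in total RNA, by line, with a marker shape for each replicate number and a bar at the mean of 3. GADD45A with UPF1-1, at 6.01 to 7.80 TPM, lies above all GFP samples, at 2.73 to 4.28 TPM, and replicate 3 is the highest sample of its group for each mRNA.

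GADD45A and GADD45B encode small stress-induced proteins that act in growth arrest and DNA repair. GADD45A (ENSG00000116717) was at 2.73, 3.16 and 4.28 TPM in GFP replicates 1 to 3, at 6.80, 6.01 and 7.80 TPM with UPF1-1, and at 2.95, 3.12 and 8.54 TPM with UPF1-2. The UPF1-1 samples did not overlap with GFP, whereas replicates 1 and 2 of UPF1-2 lay within the GFP range and replicate 3 was the highest of all 9. It rose by 0.85 ± 0.12 (SE) with UPF1-1, with a limma adjusted p of 0.0036, and in 3 of 3 replicate numbers, by 1.00, 0.79 and 0.75. With the medians equal and no block, the adjusted p was 0.11. With UPF1-2 the difference was 0.31 ± 0.12 (adjusted p of 0.37, limma). In the authors' deposited table the sleuth effect for UPF1-1 against GFP was 0.659 ± 0.157 on the natural log scale, with a q of 0.014. There, GADD45A was the only one of the 10 with a q under 0.05 in any comparison. Of all genes, 0.368% were past that value for UPF1-1 against GFP, 0.0327% for UPF1-2 against GFP and 0.139% between the isoforms, in the authors' deposited table.

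The isoforms also differed directly in GADD45A, by 0.54 ± 0.12 (limma adjusted p of 0.032), as the only member past the threshold, where 9.51% of genes passed, 5.49% higher and 4.02% lower with UPF1-1. UPF1 itself was also higher in UPF1-1 than in UPF1-2 total RNA, by 0.31 ± 0.07 (limma adjusted p of 0.036) and in 3 of 3 replicate numbers, and its part in this difference was not tested. For GADD45A the difference by replicate number was 0.79 and 0.72 in replicates 1 and 2 but 0.11 in replicate 3. Without the block it was not called (adjusted p of 0.64, limma), nor without replicate 1 (0.10) or replicate 2 (0.20).

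GADD45B (ENSG00000099860) was at 4.19, 3.44 and 5.85 TPM in GFP, at 5.37, 5.03 and 8.05 TPM with UPF1-1, and at 4.22, 4.43 and 7.77 TPM with UPF1-2. The ranges overlapped, and within each replicate number UPF1-1 was above GFP. The rise with UPF1-1 was 0.32 ± 0.08 (limma adjusted p of 0.028). It was not called without replicate 2 (0.20), without replicate 3 (0.071) or without the block (0.53). With UPF1-2 the difference was 0.21 ± 0.08 (limma adjusted p of 0.35). Of the 5 genes fixed as family and partners, which include GADD45G, 1 rose with UPF1-1 and none fell. It was PCNA, the replication clamp, by 0.50.

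Among the kinases, PIM3, a serine/threonine kinase that promotes survival, was at 8.39, 9.31 and 23.5 TPM in GFP, at 10.8, 10.4 and 26.6 TPM with UPF1-1 and at 8.42, 9.03 and 27.1 TPM with UPF1-2. All 3 lines overlapped, and the split was between replicate 3 and the others. After centring, replicate 3 exceeded the mean of replicates 1 and 2 by 0.74 to 0.89 in every line. The difference of PIM3 from GFP was 0.13 ± 0.06 with UPF1-1 and 0.03 ± 0.06 with UPF1-2, and neither passed limma's test. Its relative PIM1 rose with UPF1-1 by 0.33, and PIM2 did not pass. MAP3K14, the NF-kB-inducing kinase of the non-canonical NF-kB pathway, was at 0.153, 0.150 and 0.474 TPM in GFP, at 0.244, 0.193 and 0.473 TPM with UPF1-1, and at 0.157, 0.133 and 0.534 TPM with UPF1-2. Its lines overlapped, and replicate 3 was again the highest sample of each. None of the 5 tested genes of that pathway passed with either isoform.

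The autophagy mRNAs did not pass in total RNA. UVRAG, a subunit of a class III PI3-kinase complex, was at 1.38, 1.37 and 1.80 TPM in GFP, at 1.56, 1.46 and 1.76 TPM with UPF1-1 and at 1.20, 1.46 and 2.30 TPM with UPF1-2. Its 95% interval against GFP ran from -0.18 to 0.12 with UPF1-1 and from -0.11 to 0.19 with UPF1-2. GABARAPL1, an ATG8-family protein of autophagosome membranes, was at 1.60, 1.53 and 3.80 TPM in GFP, at 1.88, 2.65 and 3.81 TPM with UPF1-1 and at 1.14, 1.20 and 4.11 TPM with UPF1-2. With UPF1-1 it stood above GFP in replicate 2 by 0.59 and near it in replicates 1 and 3, at 0.00 and -0.04. With UPF1-2 it was below GFP in each replicate number, by -0.25, -0.17 and -0.17, and the estimate of -0.20 ± 0.12 did not pass (limma adjusted p of 0.58). The isoforms differed by 0.38 ± 0.12, with an adjusted p of 0.086 by limma. Of the ATG8 relatives, GABARAPL2 rose with UPF1-1 by 0.27. Of the 6 tested genes of the PI3-kinase complex, PIK3C3 rose by 0.32 and SH3GLB1 fell by 0.32 on the log2 scale.

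TBL2, an endoplasmic reticulum membrane protein with WD repeats, was at 0.954, 1.28 and 1.88 TPM in GFP, at 1.94, 1.83 and 2.35 TPM with UPF1-1 and at 1.29, 1.42 and 2.20 TPM with UPF1-2. UPF1-1 was above GFP within each replicate number, though the ranges overlapped slightly. It rose with UPF1-1 by 0.38 ± 0.09 (limma adjusted p of 0.029), by 0.57, 0.35 and 0.22 in replicates 1 to 3. The call was lost without replicate 1 (0.15), without replicate 2 (0.17) and without the block (0.42). With UPF1-2 the difference was 0.17 ± 0.09 and did not pass. DNAJB2, a co-chaperone of HSP70, was at 0.735, 0.866 and 2.01 TPM in GFP, at 1.13, 1.17 and 3.08 TPM with UPF1-1 and at 0.737, 0.706 and 2.28 TPM with UPF1-2. UPF1-1 was the highest line in each replicate number. Its difference was 0.31 ± 0.09 from GFP (limma adjusted p of 0.054) and 0.35 ± 0.09 from UPF1-2 (0.0501). Both passed with a pseudocount of 0.1 TPM, at 0.032 and 0.034. That was the only 1 of 9 other settings with a test under which the difference from GFP passed. The difference from UPF1-2 passed under 3 of the 9. Without replicate 3, DNAJB2 did not pass the filter and was not tested in total RNA. Among its relatives DNAJB9, DNAJB11 and DNAJB12 rose with UPF1-1 by 0.61, 0.41 and 0.33, 3 of 5 tested. DNAJB9 and DNAJB11 encode chaperones of the endoplasmic reticulum lumen.

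UPP1, uridine phosphorylase of pyrimidine salvage, was at 0.831, 0.907 and 1.75 TPM in GFP, at 1.18, 0.985 and 1.63 TPM with UPF1-1 and at 1.09, 1.14 and 2.45 TPM with UPF1-2. The lines overlapped. The difference from GFP was 0.02 ± 0.08 with UPF1-1 and 0.26 ± 0.08 with UPF1-2, with limma adjusted p of 0.87 and 0.23. UPP1 was the tested member with the lowest difference between the isoforms, -0.24 ± 0.08 for UPF1-1 minus UPF1-2, with an adjusted p of 0.083 by limma. RASSF1, a RAS-association scaffold that binds MST kinases, was at 1.51, 1.62 and 3.62 TPM in GFP, at 2.50, 2.24 and 4.81 TPM with UPF1-1 and at 1.75, 1.87 and 4.95 TPM with UPF1-2. Within each replicate number both UPF1 lines were above GFP. It rose with UPF1-1 by 0.35 ± 0.06 (limma adjusted p of 0.0083), evenly over the replicates at 0.40, 0.32 and 0.32. The adjusted p was 0.075 without replicate 1, 0.11 without replicate 2 and 0.90 without the block. With UPF1-2 the difference was 0.22 ± 0.06 (limma adjusted p of 0.22). RASSF5 and RASSF3 fell with UPF1-1 by 0.47 and 0.27 on the log2 scale, and STK4, an MST kinase, rose by 0.26.

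**Figure D2:**
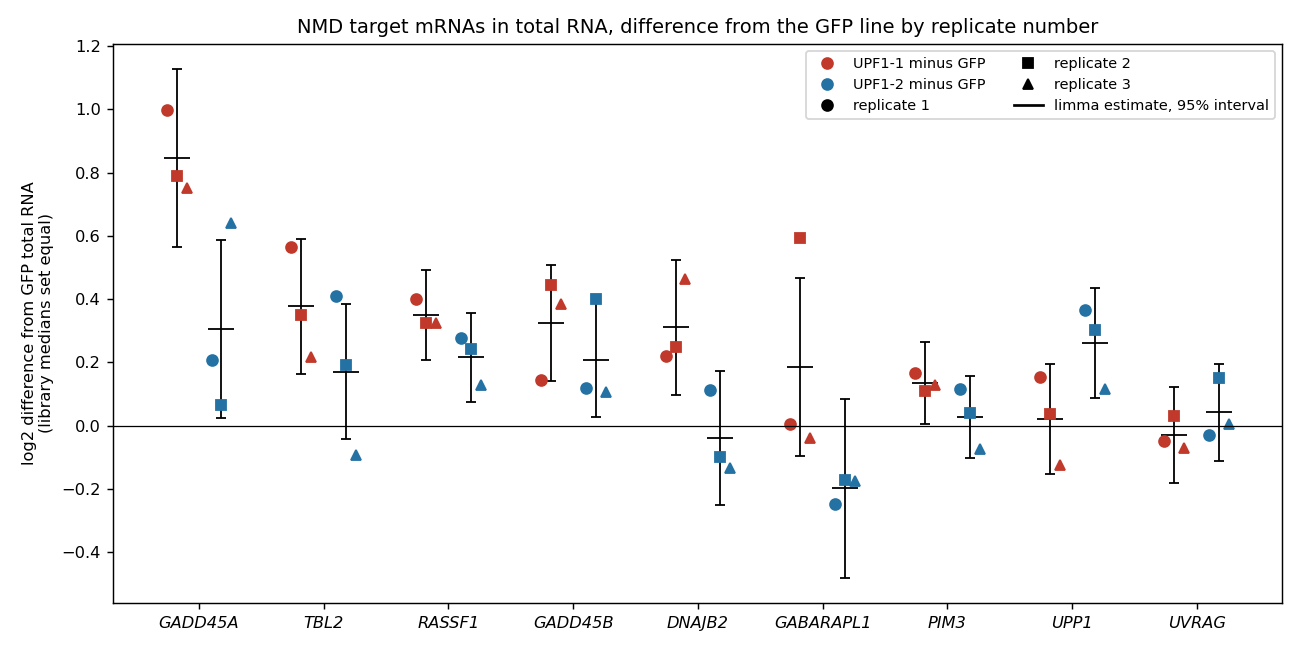
Centred log2 difference from GFP total RNA for the 9 tested mRNAs, red for UPF1-1 and blue for UPF1-2, with a marker for each replicate number and limma's estimate with its 95% interval in black. GADD45A with UPF1-1 lies between 0.75 and 1.00, and the RASSF1 points with UPF1-1 lie between 0.32 and 0.40.

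Promoter sequence was set beside the mRNAs that passed with UPF1-1. RefSeq's promoter table (GRCh38.p14) held 8 of the 10 genes, without GADD45A and UVRAG, and the 250 bases before the listed start were searched on both strands. The motifs were those of stress transcription factors: the cAMP response element TGACGTCA and its half-site TGACG, the AP-1 element TGANTCA, the amino acid response element TGATGNAAT, and the endoplasmic reticulum stress element by its name alone. The windows of the genes that rose, and of GABARAPL1 as the only one with a full cAMP response element, are shown 5′ to 3′ with that element in capitals. The table has 2 windows for TBL2, of which the first is shown.
GADD45B (chr19:2475877-2476126, plus strand): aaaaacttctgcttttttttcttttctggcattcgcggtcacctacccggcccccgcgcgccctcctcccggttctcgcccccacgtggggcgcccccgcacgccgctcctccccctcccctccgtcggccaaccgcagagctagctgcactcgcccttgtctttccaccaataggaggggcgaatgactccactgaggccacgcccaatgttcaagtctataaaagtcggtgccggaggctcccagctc
TBL2 (chr7:73578580-73578829, minus strand): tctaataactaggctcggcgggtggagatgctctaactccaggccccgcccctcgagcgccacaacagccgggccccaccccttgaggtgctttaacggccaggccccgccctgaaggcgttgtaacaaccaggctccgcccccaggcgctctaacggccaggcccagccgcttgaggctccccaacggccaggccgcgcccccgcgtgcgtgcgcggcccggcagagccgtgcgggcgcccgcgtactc
RASSF1 (chr3:50337451-50337700, minus strand): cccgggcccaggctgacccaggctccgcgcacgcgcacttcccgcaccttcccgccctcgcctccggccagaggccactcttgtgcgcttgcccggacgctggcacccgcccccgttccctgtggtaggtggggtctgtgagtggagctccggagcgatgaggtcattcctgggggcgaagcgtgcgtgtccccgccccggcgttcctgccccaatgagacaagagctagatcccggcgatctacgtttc
GABARAPL1 (chr12:10212627-10212876, plus strand): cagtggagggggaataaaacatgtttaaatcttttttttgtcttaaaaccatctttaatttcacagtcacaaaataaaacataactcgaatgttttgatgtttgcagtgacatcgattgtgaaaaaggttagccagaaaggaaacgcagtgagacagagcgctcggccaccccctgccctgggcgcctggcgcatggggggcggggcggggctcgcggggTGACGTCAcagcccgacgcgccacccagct
None of the 5 motifs was in the windows of GADD45B, TBL2 (both windows) or RASSF1. The full cAMP response element was in 1.65% of 35116 windows of this length and, of the 8 genes, in GABARAPL1, 30 bases before the start. The half-site was in 21.2% of windows, and in GABARAPL1, where it is part of the full element, and DNAJB2. The AP-1 element, in 6.57% of windows, was in 1 of 3 UPP1 windows. These are matches of letters in windows of the gene entries, which need not be the starts of the transcripts measured.

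Other published NMD targets, on a list chosen with earlier results of these data known, gave 14 of 22 higher and 1 lower with UPF1-1. Their median was 0.36, and of all genes 8.38% rose and 7.79% fell. The largest rises were PPP1R15A by 1.28, DDIT3 by 1.15, ATF3 by 0.95 and CDKN1A by 0.60, which encode stress-response and cell cycle regulators. With UPF1-2, BAG1 alone of the 22 passed, by 0.55. Of 12 NMD factors other than UPF1, SMG9 rose with UPF1-1 by 0.92 and UPF3B fell by 0.51 on the log2 scale, and none passed with UPF1-2. Over all genes in total RNA, 16.2% passed in either direction with UPF1-1 and 0.375% with UPF1-2. In the IPs, 9 of 23 of these targets with UPF1-1 and 11 of 23 with UPF1-2 were higher, and 6 and 7 were lower. Of the 12 factors, 9 were higher with each isoform. Of all genes in the IPs, 30.8% with UPF1-1 and 31.5% with UPF1-2 were higher, and 43.9% and 44.2% were lower.

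In the IPs most genes departed from the median, with 74.7% called with UPF1-1 and 75.7% with UPF1-2 among 11969 genes. The 10 mRNAs were called at a like share, 8 of 10 with each isoform. By direction, 6 were higher and 2 lower with each isoform. Of all genes, 30.8% were called higher and 43.9% lower in the UPF1-1 IP, and 31.5% and 44.2%, in that order, in the UPF1-2 IP. RASSF1, DNAJB2, GABARAPL1, GADD45A and GADD45B were higher with both isoforms, UVRAG with UPF1-1 and PIM3 with UPF1-2. MAP3K14 and UPP1 were lower with both, and TBL2 passed with neither. With medians left as they were and the block kept, nearly all of the 11969 genes were called higher in the IPs. All 10 mRNAs were likewise higher in the IP than in total RNA, MAP3K14 by 1.57 and 1.60 and UPP1 by 1.55 and 1.79 with UPF1-1 and UPF1-2.

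RASSF1 had the highest recovery of the 10 in the fit. Its IP level was 33.3, 29.5 and 75.3 TPM with UPF1-1 and 32.2, 29.4 and 69.7 TPM with UPF1-2, and the IP to total ratio in the authors' deposited table was 13.3, 13.2 and 15.6, and 18.4, 15.7 and 14.1. All 6 ratios were above the 86th percentile of genes in their library, from 86.9 to 94.3. Relative to the median gene it was higher by 1.03 ± 0.07 with UPF1-1 (limma adjusted p of 2.5e-06) and by 1.21 ± 0.07 with UPF1-2 (1.1e-06). DNAJB2 was at 16.9, 16.0 and 43.8 TPM in the UPF1-1 IP and at 12.1, 12.1 and 31.1 TPM in the UPF1-2 IP. Its ratios in the authors' table were 14.9, 13.7 and 14.3, and 16.5, 17.2 and 13.7, at percentiles from 82.9 to 96.1. DNAJB2 was higher by 0.89 ± 0.09 with each isoform (limma adjusted p of 2.9e-05 and 2.8e-05). Without a pseudocount the mean log2 ratio over the median was 1.04 and 1.20 for DNAJB2, and 1.02 and 1.22 for RASSF1. On that measure DNAJB2 was slightly above RASSF1 with UPF1-1. Every RASSF1 and DNAJB2 ratio lay above the median gene, whose ratio was 5.93 to 7.98.

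GABARAPL1 had ratios of 13.2, 8.80 and 15.5 with UPF1-1 and 13.4, 17.8 and 10.4 with UPF1-2 in the authors' table, a wider spread. It was higher by 0.81 ± 0.13 and 0.86 ± 0.13 (limma adjusted p of 0.00047 and 0.00030). RASSF1, DNAJB2 and GABARAPL1 were called higher with each isoform under all 10 other settings tried with a test. These include the settings without centring, where with the block nearly all genes were called higher, so a call there says little about a member. GADD45A had ratios of 7.44, 7.26 and 15.5 with UPF1-1, where replicate 3 stood high, and 8.18, 8.43 and 7.76 with UPF1-2. It was higher by 0.59 ± 0.13 and 0.34 ± 0.13, with limma adjusted p of 0.0034 and 0.042. Without replicate 1 or replicate 2 the UPF1-2 call was lost (0.070 and 0.12), as it was without the block (0.24), and the UPF1-1 call was lost without the block (0.053). The UPF1-2 call held under 5 of the 10 other settings, among them those without centring. It ended with medians replaced by upper quartiles (0.19) and with a pseudocount of 0.1 TPM (0.16).

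GADD45B had ratios of 7.66, 8.04 and 8.21, and 9.28, 8.94 and 6.78. It was higher by 0.33 ± 0.09 and 0.40 ± 0.09 (limma adjusted p of 0.012 and 0.0046). Its ratios lay at percentiles from 51.7 to 67.3 of genes. The mean log2 ratio over the median, without a pseudocount, was smaller, at 0.20 and 0.27. Without replicate 1 neither call held (0.12 and 0.060), and without replicate 2 the UPF1-1 call was lost (0.095), as it was with a pseudocount of 0.1 TPM (0.075). PIM3 had ratios of 7.18, 7.03 and 6.86, and 9.65, 8.91 and 7.15. It was higher with UPF1-2 by 0.50 ± 0.10 (limma adjusted p of 0.0019; 0.18 without the block), and its 0.21 ± 0.10 with UPF1-1 did not pass but did without replicate 3, at 0.35 (0.0017). PIM3 ratios lay at percentiles from 42.3 to 57.1 with UPF1-1 and from 61.7 to 67 with UPF1-2. Without a pseudocount the mean log2 ratio over the median was smaller, at 0.02 and 0.31. The authors' table gave UVRAG ratios of 7.98, 7.75 and 10.3, and 9.60, 7.45 and 6.49. UVRAG was higher with UPF1-1 by 0.20 ± 0.07 (limma adjusted p of 0.035), a call lost without any 1 of the 3 replicates (0.22, 0.18 and 0.0505 without replicates 1, 2 and 3). The call held under 4 of the 10 other settings, among them those without centring. UVRAG ratios lay at percentiles from 62.9 to 65.3 with UPF1-1 and from 55.4 to 62 with UPF1-2. Without a pseudocount the mean log2 ratio over the median was 0.31 and 0.18. TBL2 had ratios of 7.99, 9.48 and 8.20, and 8.61, 8.91 and 6.58. All were above the median gene, at percentiles from 51.6 to 78, and the mean log2 ratio over the median without a pseudocount was 0.30 and 0.22. Without replicate 3 TBL2 passed with UPF1-1, at 0.40 (0.012).

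UPP1 was recovered least. Its IP level was 5.66, 3.51 and 4.87 TPM with UPF1-1 and 4.93, 5.90 and 8.58 TPM with UPF1-2, and the ratios in the authors' table were 4.80, 3.56 and 3.0, and 4.54, 5.17 and 3.51. All 6 ratios were under the median gene, at percentiles from 14.9 to 34.7. It was lower by -1.01 ± 0.16 and -0.74 ± 0.16 (limma adjusted p of 0.00054 and 0.0031), and the log2 ratio over the median without a pseudocount was -0.90 and -0.66. MAP3K14 was also called lower, by -0.99 ± 0.19 and -0.93 ± 0.19 (limma adjusted p of 0.0014 and 0.0019), but its level is under the pseudocount in most total RNA samples. Its ratios were 5.58, 6.98 and 6.97, and 6.75, 10.3 and 6.71, around the median gene. Without a pseudocount its log2 ratio over the median was -0.10 with UPF1-1 and 0.18 with UPF1-2, and with 0.1 TPM neither call held (0.069 and 0.20). Of the related genes of pyrimidine salvage, UCKL1 was lower with both isoforms and TK1 and UCK1 higher.

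**Figure D3:**
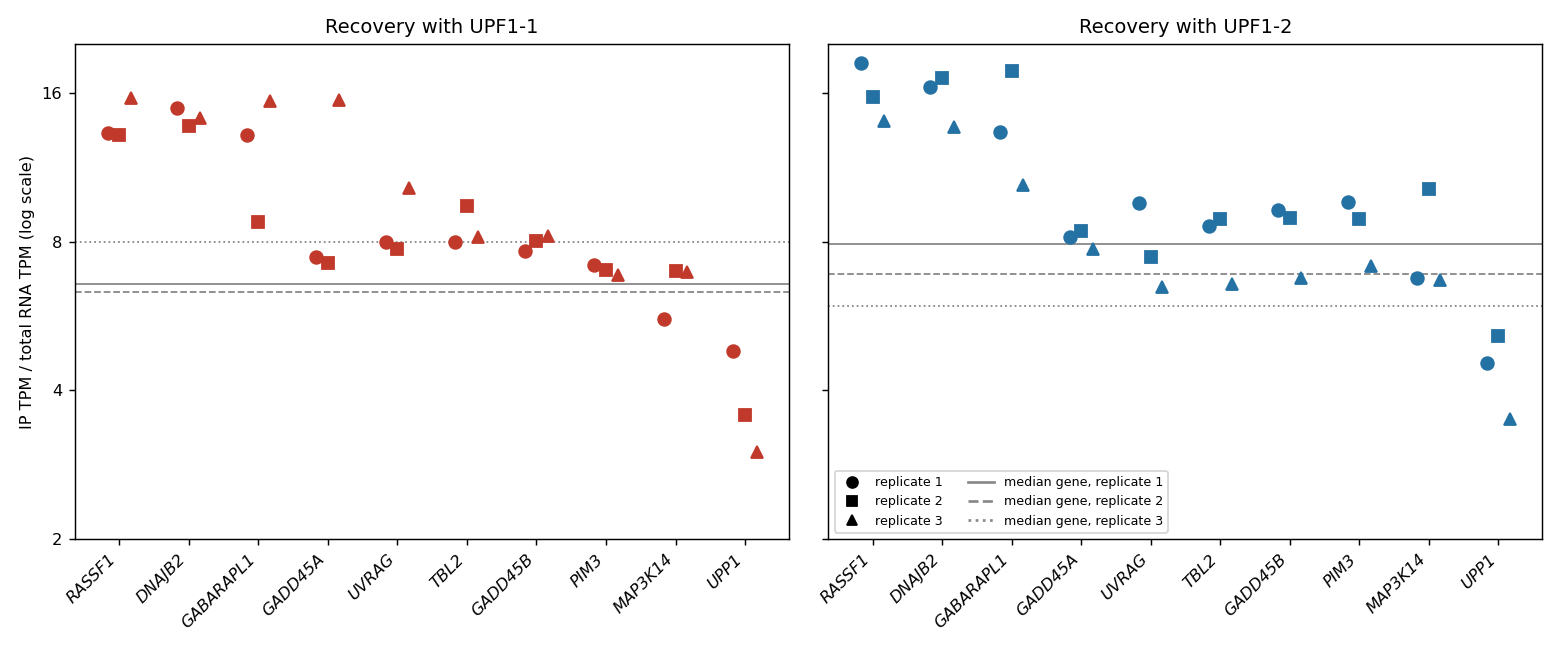
IP over total RNA TPM ratio on a log scale for each mRNA and replicate, with UPF1-1 on the left and UPF1-2 on the right, and a line at the median gene of each replicate. RASSF1 and DNAJB2 lie between 13.2 and 18.4 in all replicates, and UPP1 between 3.0 and 5.17, below each median.

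Recovery did not differ between the isoforms past the threshold for any of the 10, while 10.7% of genes did. None passed at an unadjusted p under 0.05 either, where 29.1% of genes did. The differences, UPF1-1 minus UPF1-2, ran from -0.30 ± 0.14 for PIM3 to 0.25 ± 0.19 for GADD45A. Their 95% intervals were -0.63 to 0.03 for PIM3 and -0.18 to 0.67 for GADD45A. For RASSF1 the interval ran from -0.39 to 0.04 and for DNAJB2 from -0.29 to 0.29. GADD45A, which differed between the isoforms in total RNA, differed in recovery by 0.17, -0.03 and 0.60 in replicates 1 to 3. The difference was -0.21, -0.23 and -0.45 for PIM3 and -0.17, -0.10 and -0.25 for RASSF1. GADD45B was also negative and UVRAG positive in each replicate number, and the remaining members changed sign. The test set each IP against its own total RNA and did not pair the isoforms by replicate number.

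Recovery was then compared between each of 5 families' members and their measured relatives within the 6 pairs of IP and total RNA, called cultures here, over 21 pairs of genes. The quantity is the difference in log2 ratio, without a pseudocount. The 6 cultures share 3 replicate numbers, and an exact 2-sided sign-flip permutation test over the numbers allows no p under 0.25. No pair could therefore pass a test, and the differences are given as a description. GABARAPL1 was above GABARAP by 2.43 ± 0.47 (SD, n = 6), above GABARAPL2 by 2.07 ± 0.46, above MAP1LC3B2 by 1.95 ± 0.89 and above MAP1LC3B by 0.88 ± 0.36, each in 6 of 6 cultures. The mean ratio of GABARAP was 2.54 with UPF1-1 and 2.28 with UPF1-2, against 12.5 and 13.9 for GABARAPL1. GABARAP, GABARAPL2 and MAP1LC3B2 were among the genes that limma called lower in both IPs. MAP1LC3B2 averaged 0.50 TPM in UPF1-1 and 0.39 TPM in UPF1-2 total RNA, near the pseudocount of 0.5 TPM.

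DNAJB2 was above 6 of its 7 relatives in 6 of 6 cultures. The difference was 3.09 ± 0.47 (SD, n = 6) over DNAJB11, 2.37 ± 0.39 over DNAJB6 and 2.35 ± 0.64 over DNAJB9, and 1.07, 0.53 and 0.39 over DNAJB12, DNAJB4 and DNAJB1. Over DNAJB5 it was 0.29 ± 0.16, in 5 of 6 cultures. The ratios of DNAJB4 and DNAJB5 rest on low levels, with means of 0.36 to 0.59 TPM in total RNA of the UPF1 lines. DNAJB9 and DNAJB11, which rose in UPF1-1 total RNA, had mean UPF1-1 ratios of 4.16 and 2.11, against 14.3 for DNAJB2. RASSF1 was above RASSF2 by 1.02 ± 0.07 (SD, n = 6), RASSF5 by 0.94 ± 0.24 and RASSF3 by 0.82 ± 0.33 in 6 of 6 cultures. Its difference from RASSF7 was 0.16 ± 0.22 and from RASSF8 0.57 ± 0.63, within the spread over cultures. RASSF8 and RASSF2 were also low, with means of 0.45 to 0.81 TPM in total RNA of the UPF1 lines. PIM3 was above PIM2 by 0.36 ± 0.06 in 6 of 6 cultures, and its difference from PIM1 was 0.01 ± 0.10. Among GADD45A, GADD45B and GADD45G the differences were 0.11 to 0.22, with SDs of 0.23 to 0.48.

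**Figure D4:**
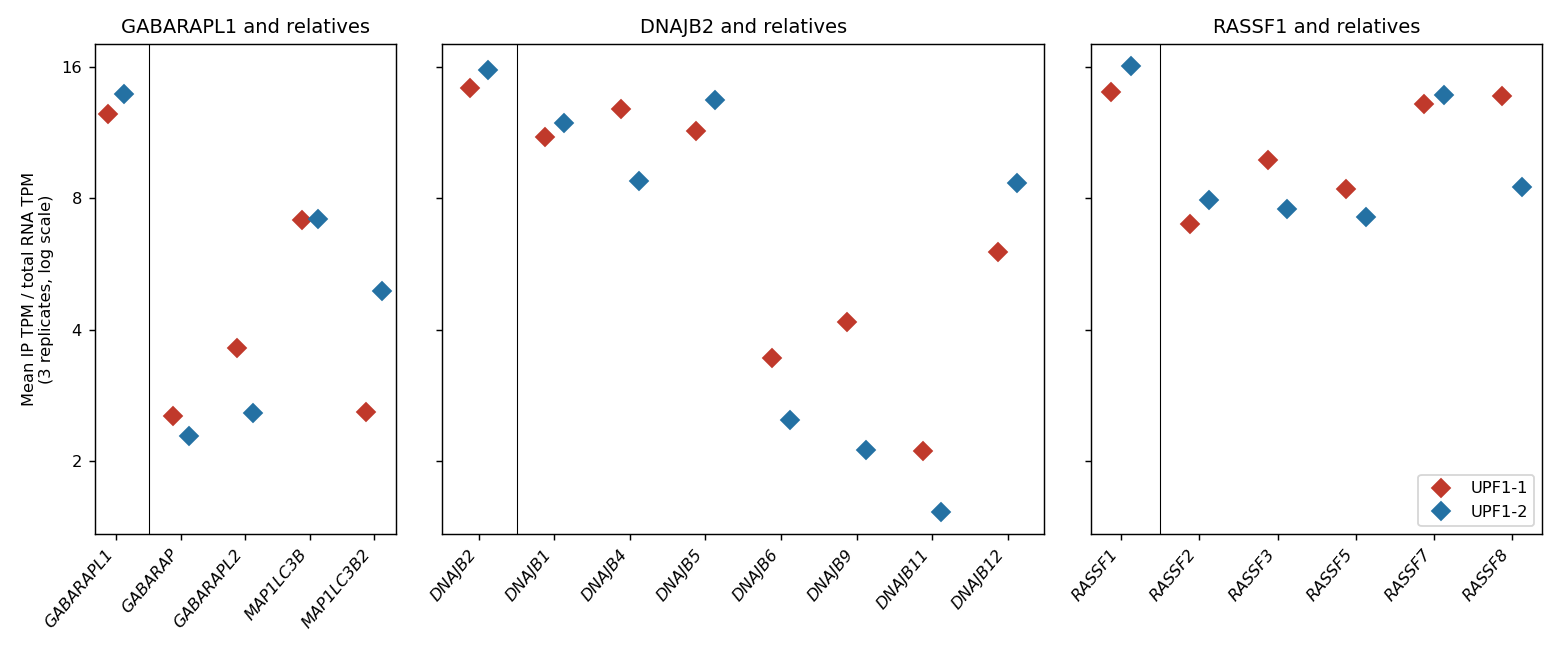
Mean IP over total RNA ratio of 3 replicates on a log scale for GABARAPL1, DNAJB2 and RASSF1, left of each line, and for their measured relatives, with UPF1-1 in red and UPF1-2 in blue. GABARAPL1 is at 12.5 and 13.9 while GABARAP is at 2.54 and 2.28, and RASSF7 is at 13.2 and 13.8, beside RASSF1 at 14.1 and 16.1.

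The genes nearest to each tested member were found over 4 differences, both isoforms against GFP in total RNA and both IPs against total RNA, among 3254 or 3255 genes with a mean of at least 5 TPM. WDR73 was the nearest gene to both DNAJB2 and GABARAPL1, at Euclidean distances of 0.13 and 0.20. OGFOD1 was nearest to RASSF1 (0.14), SLC25A17 to PIM3 (0.043), SET to UVRAG (0.074), VAPA to TBL2 (0.17) and C20orf27 to GADD45B (0.13). GADD45A had no gene as near, with C6orf48 at 0.30 as its closest.

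Several of these genes share their locus with an antisense gene, namely MAP3K14-AS1, RASSF1-AS1 and GABARAPL1-AS1. Whether reads were assigned by strand is not given in the sources used here, so reads from any exon sequence shared with the antisense partner may count for either. Only the spans of the genes were compared, and overlap of their exons was not examined. The estimated counts behind the total RNA values were largest for PIM3, at 4797 on average after back-transformation of the authors' deposited mean, and smallest for UPP1 and MAP3K14, at 166 and 175. The other 7 lay between 401 and 955.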

How the data were processed

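Per the file headers, the authors deposited TPM for 15 libraries and 12261 genes, the ratio of IP to total TPM, log2 fold columns, sleuth p-values and q-values, effects in natural log units, each gene's average natural log of the estimated counts, and variance terms and standard errors, scores that the authors took from sleuth. Cutadapt, kallisto, sleuth and hg19 are named in the submitters' processing notes, and their versions and the strand setting are not given in the sources used here. The deposited ratios equalled the recomputed ones in 100% of entries within 1e-06.

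TPM plus 0.5 was log2 transformed and library medians were set equal. Genes with at least 1 TPM in 3 fitted libraries were kept, and limma 3.58.1 (R 4.3.3, with a trend) was fitted on 9 total RNA libraries (9325 genes) and on 12 IP and total RNA libraries of the UPF1 lines (11969 genes), in 6 comparisons. P-values are 2-sided and Benjamini-Hochberg adjusted over all genes. The block was the replicate number, or the culture in the IP fit. The pairing comes from the numbers in the labels and from the deposited ratios: deviations from group means correlated at 0.701 to 0.953 over 9 same-numbered pairs in total RNA and 0.567 to 0.915 over 18 in the IP fit. Numbers 1 and 2 of different groups correlated at 0.639 to 0.802 and 0.585 to 0.745, so the values mainly set replicate 3 apart. The fit was tested on simulated data. Exact tests used SciPy 1.17.1.

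The 10 mRNAs are all reported, whatever their values, with relatives from fixed lists and up to 4 genes per list by size. The members and lists were chosen with earlier results of these data known. All 10 gene IDs matched their symbols.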

Additional observations from a re-analysis of the deposited data

Results flagged for a closer look

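GADD45A in total RNA differed between the UPF1 isoforms. The difference was 0.54 on the log2 scale (UPF1-1 minus UPF1-2), by limma's direct test with an adjusted p of 0.032. It was 0.79, 0.72 and 0.11 in replicates 1, 2 and 3. UPF1, whose reads include the construct, was also higher with UPF1-1, by 0.31 (limma adjusted p of 0.036), and its part was not tested.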

How the results depend on the processing

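Counts of genes past the threshold fell without the replicate block. With medians equal and no replicate block it went from 1507 to 16 for UPF1-1 against GFP, from 35 to 3 for UPF1-2 against GFP, from 887 to 0 between the isoforms in total RNA and from 1280 to 0 for the isoform difference in recovery; without block and centring it was 2, 1, 0 and 0, and with the block but no centring 301, 6, 89 and 0. The members called with UPF1-1 against GFP went from 4 to 0, 0 and 1 under these settings, and between the isoforms from 1 to 0 in each. With medians equal, leaving out the pairing block could change no sign, because the groups are balanced over it and the estimates stay the same. Only the spread and the adjusted p change. A pseudocount of 0.1 TPM, or no filter, called 2 members between the isoforms in total RNA, and a pseudocount of 1 TPM left 810 genes for the isoform difference in recovery. Leaving out 1 replicate gave 206 to 1141 genes and 1 to 3 members for UPF1-1 against GFP, 3 to 11 genes for UPF1-2, 17 to 451 genes and 0 to 1 members between the isoforms, and 0 to 1104 genes for the isoform difference in recovery. For IP against total RNA the counts stayed within 1.5 times, at 6200 to 11614 with UPF1-1 (8942 reported) and 6491 to 11613 with UPF1-2 (9065). Scaling moved the split of higher and lower calls. With the block and no centring it was 266 and 35 for UPF1-1 against GFP (781 and 726 reported), 3 and 3 for UPF1-2 (26 and 9), 74 and 15 between the isoforms (512 and 375), and 11464 and 150, and 11485 and 128, in the IPs (3691 and 5251, and 3772 and 5293). With upper quartiles it was 638 and 976 for UPF1-1 against GFP, 347 and 591 between the isoforms, and 846 and 459 for the isoform difference in recovery (530 and 750). Without centring, with or without the block, recovery of MAP3K14 turned to 1.57 with UPF1-1 and 1.60 with UPF1-2, and that of UPP1 to 1.55 and 1.79, because the IP medians are higher. Without a pseudocount, an alternative chosen after seeing the data, MAP3K14 turned to 0.18 with UPF1-2. This setting took the log2 ratio over the median ratio of all genes with a ratio, so centring and gene set changed too. Another 6 recovery values of members moved by more than their SD over replicates. With UPF1-2, PIM3 went from 0.50 to 0.31, GADD45B from 0.40 to 0.27, DNAJB2 from 0.89 to 1.20 and UVRAG from 0.08 to 0.18. With UPF1-1, UVRAG went from 0.20 to 0.31 and MAP3K14 from -0.99 to -0.10. The cause of the other changes was not tested.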
